A study of Homo sapiens with 49 samples.

Results

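The 10 genes PIK3R2, HNRNPUL1, STRN4, OAF, PPP1R9B, SEC13, DPM3, NRGN, GUK1 and PRKCZ were picked as the deepest falls in RNA when a hairpin against TWIST1 was switched on in BE(2)-C cells. They are 10 of the 23621 genes in the tables and all 10 passed the filter on low values there (a mean of at least 1 FPKM), as did 11433 genes in all. FPKM is a read level scaled to transcript length and library size. Because these values chose the genes, their levels and onset times in BE(2)-C cells are given as a description, with no test. What could be tested is TWIST1 itself, the same genes in a second cell line that lacks the hairpin, and other genes of their pathways.

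BE(2)-C is a MYCN-amplified human neuroblastoma line. Its cells carried a tetracycline-inducible hairpin against TWIST1 and were kept with doxycycline at 0.5 µg/ml for 3, 6, 12, 24 or 48 h, or without doxycycline, with 3 libraries in each of the 6 groups. SHEP-21N is a human neuroblastoma line in which a MYCN transgene is on until doxycycline (0.2 µg/ml) turns it off; the groups are 2, 4, 6, 8, 16 and 24 h of doxycycline with 3 libraries each, and 0 h with 2. External ERCC RNAs went into each lysate after the cells had been counted, per the labels' protocols, and each experiment has an unnormalised FPKM table and one rescaled to the spike-ins. The labels do not say whether the hairpin cells are 1 clone, and no BE(2)-C cells given doxycycline without the hairpin were among the samples used here. No label says that replicates were separate cultures, so p-values measure the spread between these libraries only. In bulk RNA, fewer cells of a type and less RNA per cell cannot be told apart.

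Both lines carried markers of the state they are known for: all 10 adrenergic neuroblastoma markers reached 1 FPKM in BE(2)-C cells and all 10 mesenchymal markers did in SHEP-21N cells. In SHEP-21N cells 3 of the 10 adrenergic markers reached 1 FPKM, with PHOX2A, GATA3, DBH, TH and CHGA among those below it. The adrenergic sum there was 60.7 to 64.8 FPKM at 0 h. The 5 blood markers were under 1 FPKM in both lines, while 1 of 6 epithelial markers reached it in each. The epithelial sums were 9.09 to 14.0 FPKM in BE(2)-C cells without doxycycline and 6.10 to 6.75 FPKM in SHEP-21N cells at 0 h. In BE(2)-C cells without doxycycline 1 of 5 glial and 1 of 4 endothelial markers also reached 1 FPKM. The summed mesenchymal markers, of which 3 of 10 reached 1 FPKM in BE(2)-C cells, stood at 102.6 to 113.0 FPKM at 48 h, against 80.8 to 99.7 FPKM without doxycycline. Most of that sum was VIM, with means of 97.6 FPKM at 48 h and 81.6 FPKM without doxycycline, while FOSL2 averaged 7.99 and 3.48 FPKM and SNAI2 1.96 and 2.97 FPKM in the same order; their part in the results was not tested. The no-doxycycline library numbered 1 stood apart from the other 2 of its group. Its unnormalised total was 1065081 FPKM, against 705808 to 906413 over the other 17 BE(2)-C libraries, and its log2 values correlated across genes with those 2 at 0.951 and 0.958, against 0.981 between them. In the rescaled values the median of all tested genes moved by −0.43, 0.22, 0.19, −0.22 and −1.36 on the log2 scale at 3, 6, 12, 24 and 48 h, whereas in the unnormalised values it stayed between −0.01 and 0.02. Both scales are therefore given, and every log2 change is one of FPKM + 1, a scale on which changes of weak genes come out too small. In SHEP-21N cells some index sequences in the labels recur between 0 and 8 h, 2 and 16 h, and 4 and 24 h.

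TWIST1 encodes a basic helix-loop-helix transcription factor that binds E-box sequences and acts in neural crest and mesenchymal cells. A hairpin RNA is cut in the cell to a small interfering RNA, which guides cleavage of a fully matched transcript. Small interfering RNAs can also lower transcripts that match them only over a short stretch near their 5′ end, the seed. The 10 genes share no single pathway: 4 encode signalling regulators, and 5 others act in RNA binding, vesicle and nuclear pore assembly, glycosylation, nucleotide metabolism and neuronal calcium signalling.

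TWIST1 fell with its hairpin, and on the unnormalised scale it did so from 6 h on. Unnormalised TWIST1 stood at 57.9, 74.6 and 62.1 FPKM without doxycycline, at 50.9, 42.4 and 46.1 FPKM at 3 h, at 32.3, 32.2 and 36.2 FPKM at 6 h, and at 18.9, 17.7 and 17.7 FPKM at 48 h. All 3 libraries of every doxycycline group lay below all 3 without doxycycline. The 48 h mean was 27.9% of that without doxycycline unnormalised and 9.6% rescaled, so how much of the transcript level remained depended on the scale. The log2 change was −0.47 ± 0.11 (SE) at 3 h, which did not pass (adjusted p = 0.679 from limma over all tested genes), −0.93 at 6 h (adjusted p = 0.000245), −1.38 at 12 h (9.92e-07), −1.64 at 24 h (4.36e-08) and −1.78 at 48 h (9.30e-09). On the rescaled values the changes were −0.95, −0.68 and −1.20 at 3, 6 and 12 h, none past the threshold (adjusted p = 0.411, 0.943 and 0.590), then −1.90 at 24 h (0.00253) and −3.29 ± 0.34 at 48 h (4.12e-08).

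**Figure D1:**
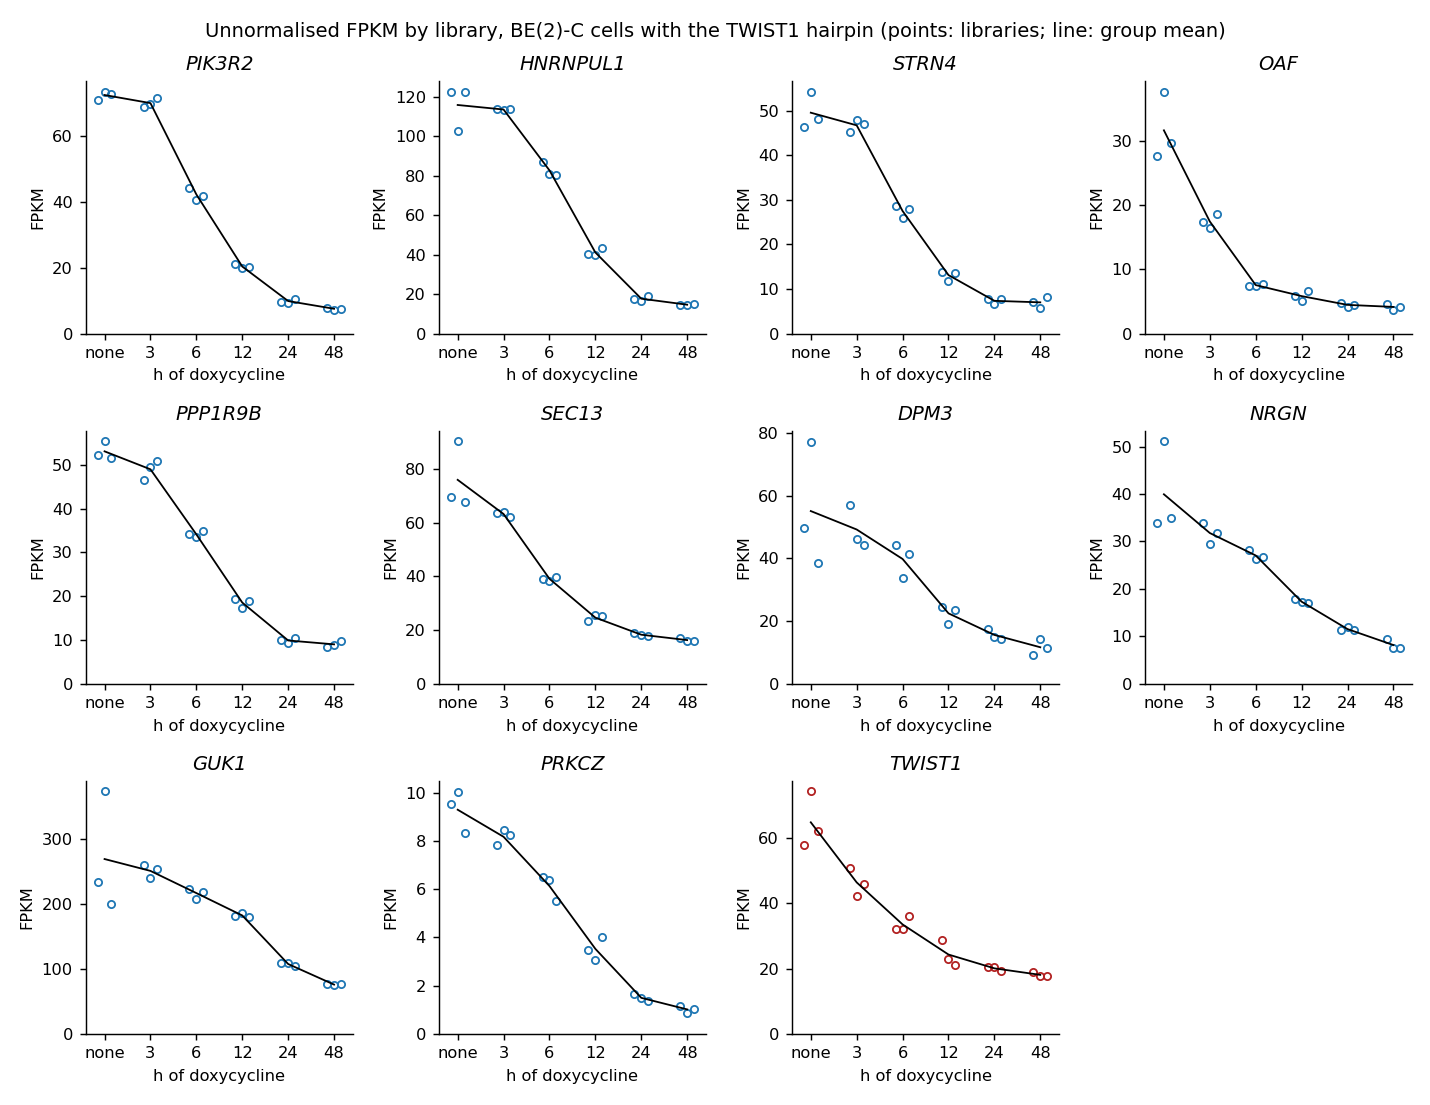
Unnormalised FPKM (vertical axis, from 0, own scale in each panel) of the 10 genes and TWIST1 in BE(2)-C cells by h of doxycycline, with the times evenly spaced; points are libraries and the line joins group means. OAF stands at 16.5 to 18.6 FPKM by 3 h, against 27.6 to 37.6 FPKM without doxycycline, whereas GUK1 is still at 179.8 to 185.5 FPKM at 12 h.

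PIK3R2 had the deepest fall of the 10. It encodes the p85β regulatory subunit of class I phosphoinositide 3-kinase, which holds and stabilises the catalytic subunit. PIK3R2 stood at 71.2, 73.5 and 73.0 FPKM without doxycycline, at 68.8, 69.7 and 71.7 FPKM at 3 h, at 44.4, 40.6 and 41.9 FPKM at 6 h, at 21.1, 19.9 and 20.2 FPKM at 12 h, at 9.70, 9.29 and 10.6 FPKM at 24 h, and at 7.81, 7.30 and 7.47 FPKM at 48 h (unnormalised). The 3 h libraries overlapped those without doxycycline and all later ones lay below them. At 48 h the mean was 10.4% of that without doxycycline, a log2 change of −3.11 unnormalised and −4.46 rescaled.

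STRN4 encodes zinedin, a striatin-family scaffold of the STRIPAK phosphatase and kinase complex. It stood at 7.0, 5.76 and 8.21 FPKM at 48 h, against 46.3, 54.2 and 48.1 FPKM without doxycycline (log2 change −2.67 unnormalised, −4.01 rescaled). PPP1R9B encodes spinophilin, which targets protein phosphatase 1 to actin and dendritic spines. It stood at 8.29, 8.85 and 9.79 FPKM at 48 h, against 52.2, 55.3 and 51.7 FPKM without doxycycline (−2.44 unnormalised, −3.83 rescaled). In both genes the groups were far apart, with the highest 48 h library far below the lowest library without doxycycline.

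PRKCZ, an atypical protein kinase C of cell polarity and NF-κB signalling, was the weakest expressed of the 10. Its unnormalised level was 1.16, 0.846 and 1.03 FPKM at 48 h, against 9.54, 10.0 and 8.32 FPKM without doxycycline, so that 10.9% of the mean remained. On the rescaled values it stood at 0.341 to 0.633 FPKM at 48 h. Its log2 change of FPKM + 1 was −3.05 rescaled, the shallowest of the 10, and −2.36 unnormalised, place 6 of the 10. The added 1 makes this fall look small. As a share of the mean without doxycycline 4.4% remained rescaled, and only PIK3R2 (3.6%) and HNRNPUL1 (4.2%) kept less. Unnormalised, only PIK3R2 kept less, at 10.4%.

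HNRNPUL1 encodes an RNA-binding protein of the hnRNP U family with roles in RNA processing and the DNA damage response. It stood at 14.5, 14.3 and 15.05 FPKM at 48 h, against 122.7, 102.7 and 122.5 FPKM without doxycycline (log2 change −2.90 unnormalised, −4.39 rescaled). At 3 h its 3 libraries, all between 113.5 and 113.8 FPKM, lay within the range without doxycycline.

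OAF, named after the fruit fly gene out at first, was the quickest. It stood at 27.6, 37.6 and 29.7 FPKM without doxycycline, at 17.3, 16.5 and 18.6 FPKM at 3 h, at 7.45, 7.43 and 7.76 FPKM at 6 h, and at 4.61, 3.67 and 4.15 FPKM at 48 h. The 3 h libraries were already clear of all those without doxycycline, and by 6 h the mean was 23.8% of theirs. From 6 h to 48 h the mean moved only between 7.55 and 4.15 FPKM.

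SEC13 encodes a β-propeller protein shared by the COPII vesicle coat, the nuclear pore and the GATOR2 regulator of mTORC1. SEC13 stood at 17.1, 15.8 and 15.8 FPKM at 48 h, against 69.8, 90.5 and 68.0 FPKM without doxycycline (log2 change −2.15 unnormalised, −3.64 rescaled). DPM3 anchors dolichol phosphate mannose synthase in the endoplasmic reticulum membrane. DPM3 stood at 9.21, 14.1 and 11.5 FPKM at 48 h, against 49.7, 77.3 and 38.4 FPKM without doxycycline (−2.11 unnormalised, −3.54 rescaled). Its libraries without doxycycline spread 2-fold, with library 1 the high one, and at 6 h its range of 33.7 to 44.4 FPKM still overlapped theirs.

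NRGN encodes neurogranin, a neuronal protein that binds calmodulin at low calcium. NRGN stood at 9.43, 7.51 and 7.50 FPKM at 48 h, against 33.9, 51.1 and 34.9 FPKM without doxycycline (log2 change −2.14 unnormalised, −3.50 rescaled). GUK1 encodes guanylate kinase, which makes GDP from GMP, and was the most abundant of the 10. GUK1 stood at 76.7, 74.4 and 76.0 FPKM at 48 h, against 233.5, 373.6 and 199.7 FPKM without doxycycline (−1.76 unnormalised, −3.40 rescaled). For GUK1 the library without doxycycline numbered 1 was the high one; at 24 h its range of 103.7 to 109.6 FPKM was below all 3.

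A fall was ranked where the gene was no small or uncharacterised RNA, its 48 h libraries all lay below those without doxycycline and its adjusted p was under 0.05 (limma, rescaled values), which held for 8399 genes. Among these the 10 genes held places 1 to 7, 9, 10 and 27 at 48 h. Over all 11433 tested genes, small RNAs included, their places were 4 to 40 rescaled and 9 to 41 unnormalised. The last member inside the first 10 places was GUK1 at −3.40 and the genes just outside were PPP1R16B at −3.37, HDGF at −3.37 and MYL6B at −3.37; EMILIN1 at −3.54 held place 8 and is no member. TWIST1 held place 15. Of the 10 genes 0, 1, 2, 10 and 10 were lower at an adjusted p under 0.05 at 3, 6, 12, 24 and 48 h on the rescaled values (limma), where 0.0175%, 0.0175%, 0.0262%, 0.586% and 93.3% of all tested genes were. At 3 h on that scale 243 genes had an unadjusted p under 0.05. Unnormalised, 1, 7, 9, 10 and 10 were, where 0.0175%, 0.472%, 3.33%, 13.6% and 21.3% of all tested genes were. Since the choice of the genes used this contrast, nothing is read from these counts.

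Onset was taken as the earliest time from which, there and at all later times, every library lay below every library without doxycycline and the log2 change was −0.5 or lower. On the unnormalised values OAF had its onset at 3 h. PIK3R2, STRN4, PPP1R9B, SEC13, NRGN and PRKCZ had theirs at 6 h, as did TWIST1, and HNRNPUL1, DPM3 and GUK1 had theirs at 12 h. By this rule and scale OAF came before TWIST1, 6 genes in the same interval and 3 after it. The order moved with the rule. After centring on the median gene TWIST1 had its onset at 3 h, as OAF did, and with a log2 change of −1 or lower required, TWIST1 and 8 of the genes shared 12 h, with OAF at 6 h and GUK1 at 24 h. Of all tested genes 0.00875% had an onset by 3 h, which was OAF alone, 0.201% by 6 h, 1.01% by 12 h, 4.29% by 24 h and 7.91% by 48 h. TWIST1 at 3 h was below every library without doxycycline but its change of −0.47 just missed −0.5. SEC13 was likewise below all 3 at 3 h, at 62.4 to 64.0 FPKM against 68.0 to 90.5 FPKM, with a change of −0.25.

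The time at which a gene had covered 50% of its 48 h log2 fall, interpolated between time points, gave the order in finer steps. OAF reached it at 4.40 h, TWIST1 at 5.77 h, SEC13 at 7.34 h, STRN4 at 9.01 h, PPP1R9B at 10.2 h, PIK3R2 at 10.7 h, DPM3 at 10.9 h, NRGN at 11.4 h, HNRNPUL1 and PRKCZ at 11.9 h, and GUK1 at 17.9 h. TWIST1 had 52.0% of its fall by 6 h. Only OAF, at 72.3%, had more by then, and the other 9 genes had between 14.7% and 43.3%. By 12 h TWIST1 had 77.7%, OAF 84.7% and SEC13 73.4%. At 12 h 6 of the 10 log2 changes were deeper than that of TWIST1 (−1.38): OAF at −2.25, STRN4 at −1.84, PIK3R2 at −1.78, SEC13 at −1.58, and HNRNPUL1 and PPP1R9B both at −1.47. By 24 h 9 of 10 were deeper, GUK1 at −1.26 being the exception. The order against TWIST1 depended on the scale. After centring the rescaled values on the median gene, OAF alone came ahead of TWIST1, at 3.94 h against 5.90 h, and SEC13 was next at 7.52 h. On the rescaled values without centring, where the median gene itself stood at −1.36 at 48 h, the order changed. There TWIST1 reached 50% of its 48 h fall at 19.6 h, after 7 of the 10 genes. OAF was again first at 9.27 h, followed by STRN4 at 15.4 h, PRKCZ at 17.0 h, PIK3R2 at 17.3 h, PPP1R9B at 17.9 h, SEC13 at 18.0 h and HNRNPUL1 at 18.8 h, while DPM3, NRGN and GUK1 came after TWIST1 at 21.5, 21.7 and 26.1 h.

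**Figure D2:**
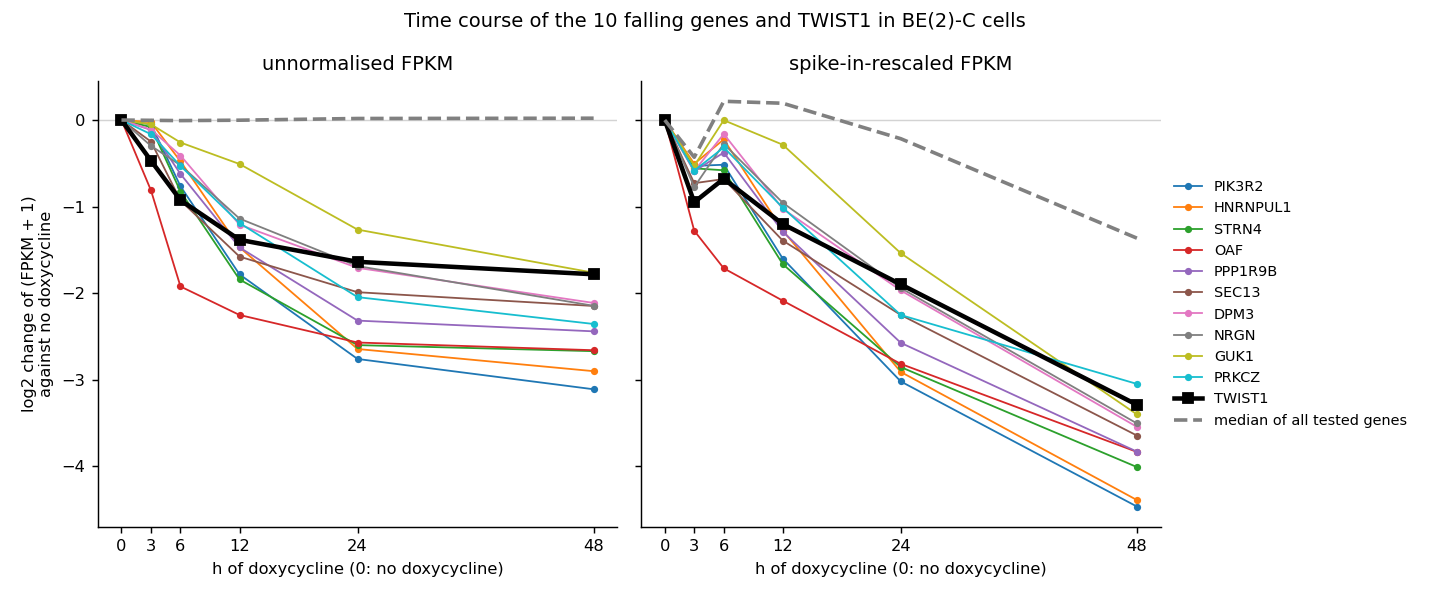
Log2 change of FPKM + 1 against no doxycycline (vertical axis) by h of doxycycline in BE(2)-C cells, unnormalised on the left and rescaled to spike-ins on the right; coloured lines are the 10 genes, the heavy black line is TWIST1 and the dashed grey line is the median of all tested genes. OAF lies below TWIST1 at every time on both scales, and the median gene reaches −1.36 at 48 h on the rescaled values.

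On the unnormalised values the median log2 values of all 18 BE(2)-C libraries lay between 3.665 and 3.761. On the rescaled values the libraries of a group lay further apart, and most so at 48 h. There their medians ran from 2.089 to 3.147, against 3.223 to 3.979 at 3 h and 3.961 to 4.82 at 6 h. TWIST1 stood at 33.4, 51.3 and 41.5 FPKM at 3 h and 42.6, 70.5 and 42.1 FPKM at 6 h, against 91.8, 70.3 and 82.0 FPKM without doxycycline. OAF and SEC13 had their onset at 3 h on that scale, TWIST1 and 7 of the genes at 12 h, and GUK1 at 24 h. Of all tested genes 0.035% had an onset by 3 h, 0.236% by 12 h, 10.2% by 24 h and 78% by 48 h. OAF stood at 11.5, 19.6 and 16.7 FPKM at 3 h, against 43.2, 34.9 and 39.7 FPKM without doxycycline, and its groups did not overlap. Leaving out no-doxycycline library 1 moved the unnormalised onset of HNRNPUL1 to 6 h, NRGN and PRKCZ to 12 h and GUK1 to 24 h. It moved the rescaled onset of PIK3R2, STRN4 and TWIST1 to 3 h. With all libraries kept, PIK3R2 (−0.53) and STRN4 (−0.56) were then close to the rescaled median gene (−0.43). Their unnormalised 3 h means were 96.6% and 94.3% of those without doxycycline. On the rescaled values, leaving out 6 h library 1 moved more: TWIST1 and NRGN to 3 h, and PIK3R2, STRN4, PPP1R9B and PRKCZ to 6 h. That library held TWIST1 at 70.5 FPKM, just above the lowest library without doxycycline at 70.3 FPKM. Without 12 h library 1 the rescaled onset of GUK1 moved to 12 h. OAF kept 3 h on both scales without no-doxycycline library 1, and on the rescaled values without 6 h or 12 h library 1.

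**Figure D3:**
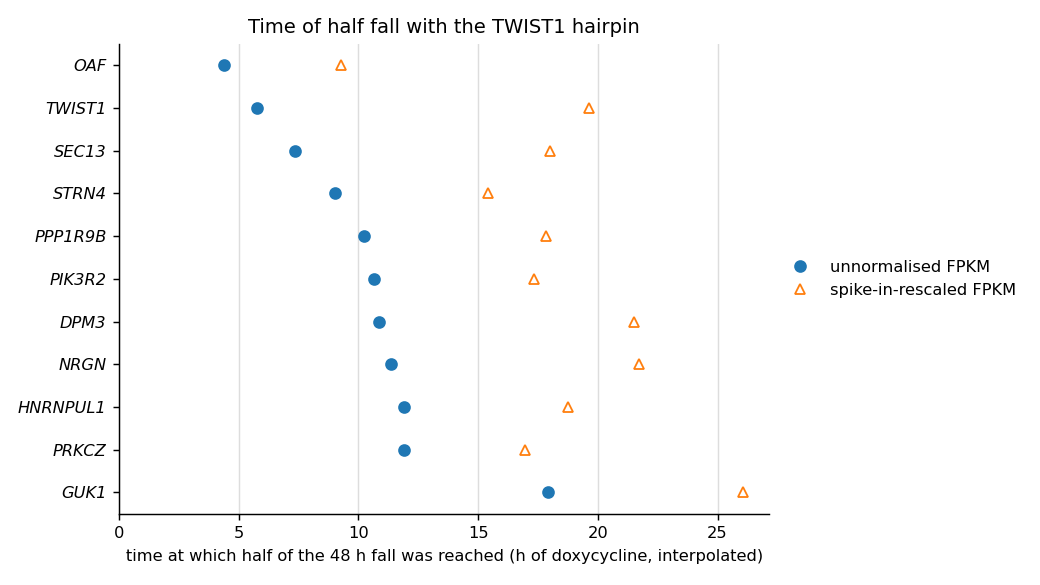
Time in h of doxycycline at which each gene had covered 50% of its 48 h log2 fall (horizontal axis), on unnormalised values (filled circles) and values rescaled to spike-ins (open triangles). On the unnormalised values OAF at 4.40 h is the one gene ahead of TWIST1 at 5.77 h, and GUK1 at 17.9 h is last; on the rescaled values 7 of the 10 genes lie ahead of TWIST1 at 19.6 h.

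The genes most like the 10 over the 18 BE(2)-C libraries, by Pearson's r between log2 unnormalised FPKM and the mean of the 10 standardised profiles, were EMILIN1 (r = 0.996), TMEM184B (0.995), SDHC (0.995), KXD1 (0.994) and REXO4 (0.992). EMILIN1 encodes an extracellular matrix glycoprotein and SDHC a membrane subunit of succinate dehydrogenase. EMILIN1 averaged 31.6 FPKM at 48 h and 126.7 FPKM without doxycycline, and SDHC averaged 18.3 FPKM at 48 h and 53.1 FPKM without doxycycline. TWIST1 had r = 0.958, place 144 among genes that are no members. Of the 10 genes, which form that mean, OAF (0.914) and GUK1 (0.949) had lower values than TWIST1 and the others higher ones. The libraries share their groups, so these values describe likeness of profile only.

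The transcripts of the 10 genes were compared with those of all tested genes, with 1 protein-coding transcript a gene from GENCODE v29, found for 10165 of the 11433 genes and for all 10. PIK3R2, HNRNPUL1 and STRN4 lie on chromosome 19, which holds 7.08% of the 10165 genes, DPM3, GUK1 and PRKCZ on chromosome 1, OAF and NRGN on chromosome 11, SEC13 on chromosome 3, PPP1R9B on chromosome 17, and TWIST1 on chromosome 7. All 10 transcripts were GC-rich, from 55.8% in SEC13 to 64.7% in NRGN, against a median of 48.7% over all. Of 14805 heptamers held by at least 500 genes and lacking in at least as many, ACGAGGA was the one whose holders had the lowest mean unnormalised log2 change, relative to genes without it, at 12, 24 and 48 h. It ranked 122 at 6 h and 1018 at 3 h. At 24 h the difference was −0.187 for ACGAGGA. Ranks 2 and 4 went to TACGAGG (−0.148) and CGACGAG (−0.145), which occur in TWIST1. Ranks 3 and 5 went to CGAGGAC (−0.146, in 6 of the 10 genes) and GACGAGG (−0.141, in 5), which do not. Of the 14805 heptamers 1406 occur in the TWIST1 transcript. This search was made after the changes were known and is a description. ACGAGGA occurs once in the TWIST1 transcript, in the coding sequence, and in 8 of the 10 genes, against 18.4% of all transcripts. The 10 genes and TWIST1 were among the genes whose changes picked this heptamer, and the 18.4% is not matched for GC. Nothing is therefore read from that count.

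The first ACGAGGA of 7 of these 8 genes is shown beside that of TWIST1, since it is the sequence they share, on the transcript's strand, with the heptamer in capitals.
TWIST1: gcagtcttACGAGGAgctgca
PIK3R2: catggaggACGAGGAcgatct
HNRNPUL1: gcacatcaACGAGGAggtcga
OAF: catgaagtACGAGGAaaactt
PPP1R9B: cgaagacgACGAGGAggatgg
SEC13: ctcatgttACGAGGAagaaac
GUK1: cccataccACGAGGAacccga
PRKCZ: cgacaagaACGAGGAcgccga
PPP1R9B held 6 copies, HNRNPUL1 4, STRN4 3, PIK3R2 and PRKCZ 2 each, and OAF, SEC13 and GUK1 1 each. DPM3 and NRGN held none in any of their 3 and 2 annotated protein-coding transcripts. In OAF and SEC13, the 2 genes with the earliest 50% times on the unnormalised values, the site lay 3′ of the coding sequence; in the other 6 genes all copies lay within it. These 2 sites also shared the base before the heptamer with TWIST1, and the resulting octamer TACGAGGA occurs in 3.45% of all transcripts. SEC13 matched TWIST1 over 9 bases in a row and OAF over 8, and HNRNPUL1, STRN4 and PPP1R9B also had sites that matched over 8, through the base after the heptamer. None of the sources used here gives the sequence of the hairpin, so whether any of these sites matches it was not tested.

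Across all genes the change went down with the number of copies of ACGAGGA. At 48 h the mean unnormalised log2 change was 0.02 ± 0.33 (SD) over 8292 genes with none, −0.15 ± 0.41 over 1496 genes with 1, −0.33 ± 0.49 over 277 genes with 2 and −0.53 ± 0.60 over 100 genes with 3 or more. The share of genes at −0.5 or lower was 5.92%, 16.1%, 31.0% and 47.0% in the same order. At 3 h the means were 0.01 with none and 0.02 with 1. Without the 10 genes and TWIST1 the 48 h means were 0.02, −0.15, −0.31 and −0.46. In SHEP-21N cells the means were 0.01, −0.06, −0.17 and −0.19 at 6 h, and −0.04, −0.07, −0.11 and −0.16 at 24 h. Holders were longer and richer in GC, with a median of 3858 bases and 53.6% GC, against 3016 bases and 47.8% in genes without the heptamer. The heptamer was chosen because its holders had the lowest mean change among these same genes. Lower means in holders therefore followed from the choice, also without the 10 genes and TWIST1, and nothing is read from them. Genes are not independent replicates either, so these means carry no test.

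**Figure D4:**
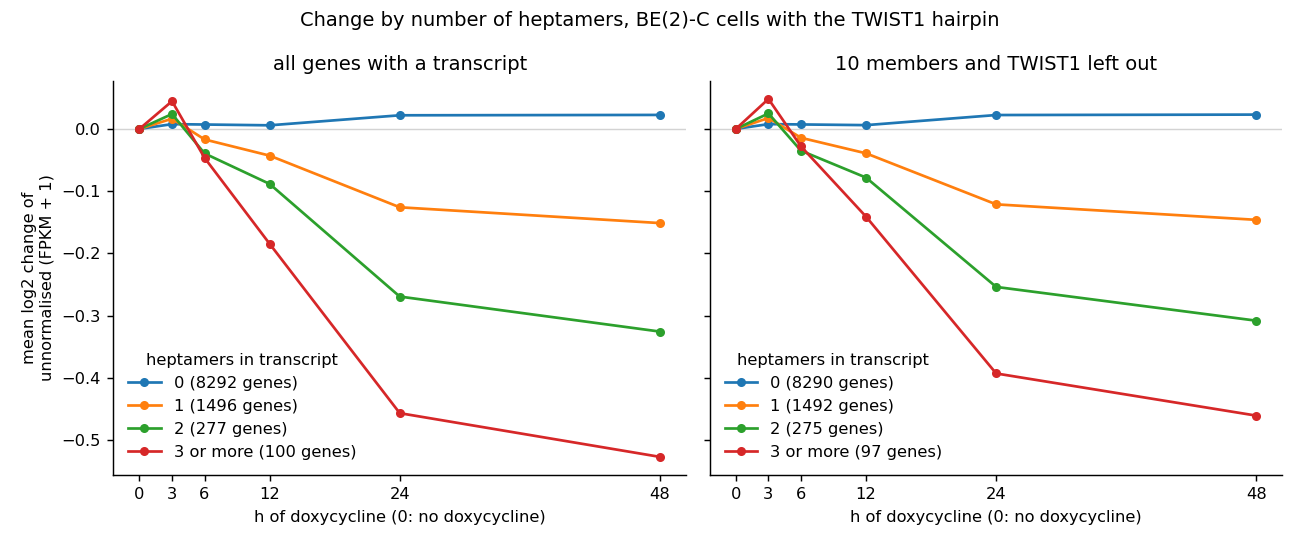
Mean log2 change of unnormalised FPKM + 1 against no doxycycline (vertical axis) by h of doxycycline in BE(2)-C cells, for genes grouped by copies of the heptamer in their transcript, with all genes on the left and without the 10 genes and TWIST1 on the right. The means at 48 h are 0.02, −0.15, −0.33 and −0.53 for 0, 1, 2 and 3 or more copies on the left. The heptamer was chosen by the changes of these same genes, so lower means in holders followed from the choice.

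Promoters were looked at because TWIST1 binds the E-box CANNTG. RefSeq promoters (GRCh38.p14, 250 bases before to 50 after the gene's start) were matched for 8 of the 10 genes. The E-box, whose complement is again CANNTG, occurred in 5 of these 8, against 58.8% of 8343 promoters of tested genes, a share near that background. Its form CACGTG, which is also counted as CANNTG, occurred in HNRNPUL1, 1 of 8, against 10.6%. HNRNPUL1 overlaps TGFB1 on the other strand in GENCODE v29. Whether counting used strand is not stated, so reads of this pair cannot be told apart. TGFB1 averaged 10.2 FPKM and changed by −0.42 (unnormalised log2, 48 h).

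SHEP-21N cells, which lack the hairpin, gave values that the choice of the 10 genes did not use. MYCN, the gene switched off there, averaged 14.1 FPKM at 24 h and 789 FPKM at 0 h on rescaled values (log2 change −5.72, adjusted p = 3.24e-12 from limma). PRKCZ was too weak to be tested, at 0.302 to 0.573 FPKM at 24 h and 0.438 and 0.531 FPKM at 0 h. At 24 h 7 of the other 9 genes fell, where 32.4% of all tested genes were lower. Their log2 changes were −0.91 for NRGN (adjusted p = 0.00464), −0.74 for STRN4 (0.0169), −0.72 for DPM3 (0.0238), −0.68 for PPP1R9B (0.0199), −0.65 for PIK3R2 (0.0252), −0.64 for HNRNPUL1 (0.0347) and −0.60 for OAF (0.0435), all from limma with SE between 0.21 and 0.23. GUK1 at −0.53 and SEC13 at −0.40 did not pass (adjusted p = 0.0978 and 0.203). The median of the 9 was −0.65, against −0.31 over all tested genes.

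The libraries behind these calls lay close together. PIK3R2 stood at 34.4, 28.4 and 22.4 FPKM at 24 h, against 39.8 and 49.4 FPKM at 0 h. OAF stood at 39.1, 30.5 and 25.1 FPKM at 24 h, against 42.6 and 53.3 FPKM at 0 h. For both, the groups did not overlap, but the lowest library at 0 h was not far above the highest at 24 h. The count of 7 fell to 4 and 0 without 0 h library 1 or 2, to 3 and 1 without 24 h library 1 or 2, and was 8 without 24 h library 0. On the unnormalised values 8 of 9 fell, all but SEC13, where 36.4% of tested genes were lower; the log2 changes of those 8 lay between −0.64 and −0.26.

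**Figure D5:**
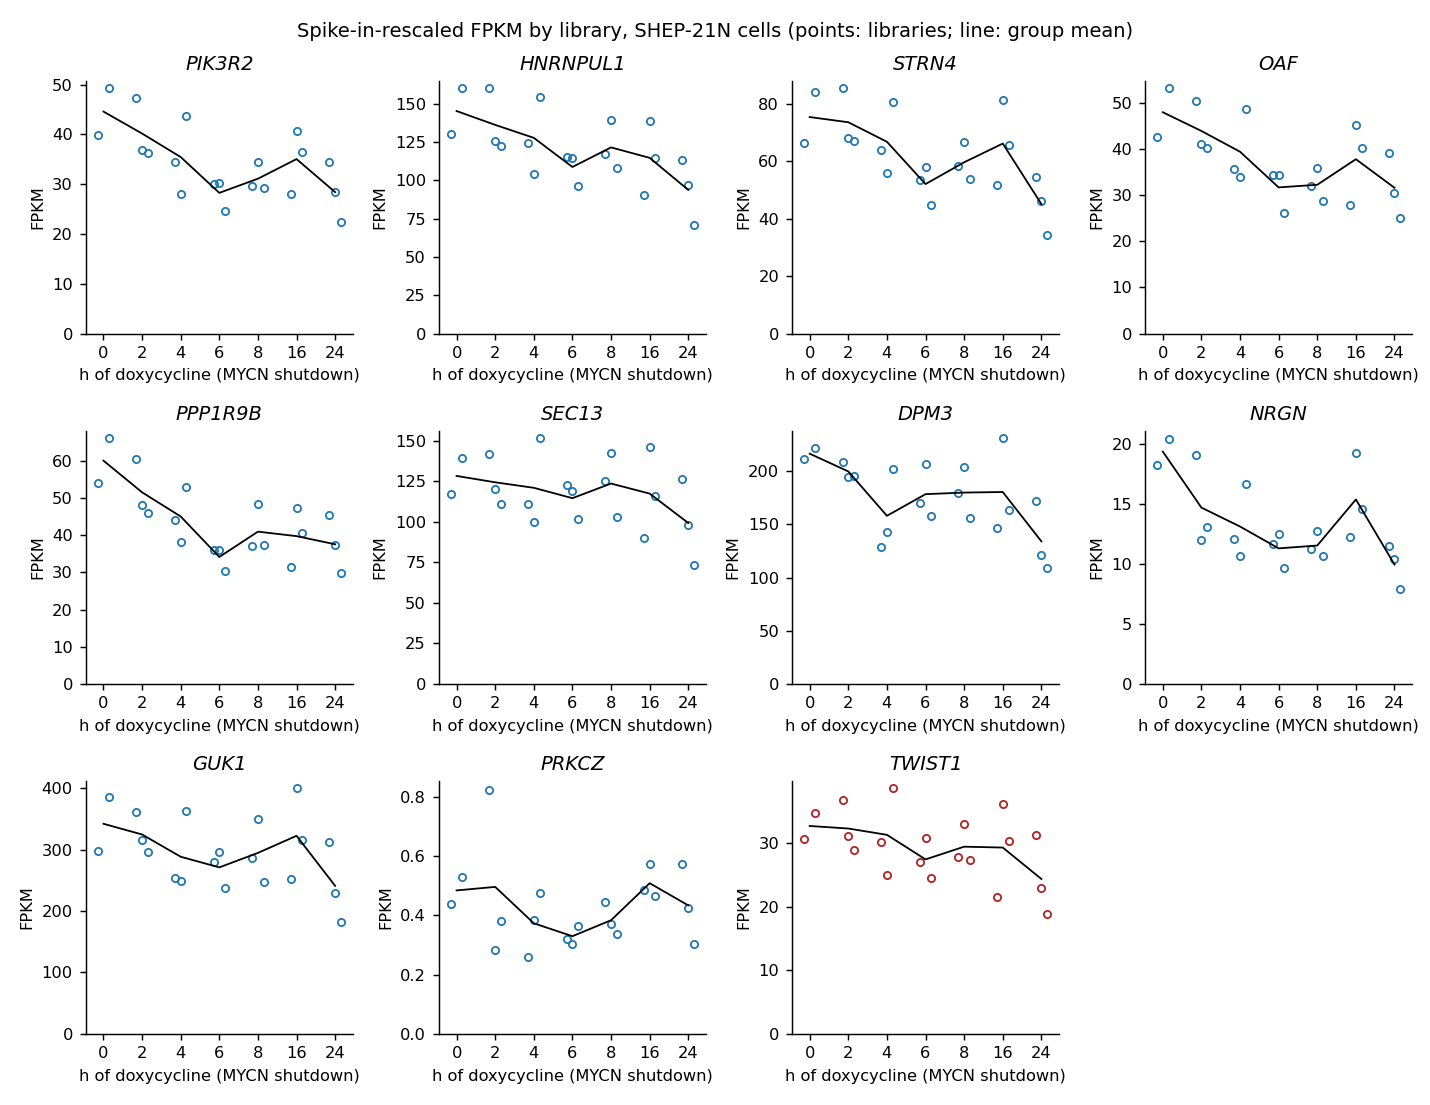
FPKM rescaled to spike-ins (vertical axis, from 0, own scale in each panel) of the 10 genes and TWIST1 in SHEP-21N cells by h of doxycycline, which shuts MYCN off, with the times evenly spaced; points are libraries and the line joins group means. PIK3R2 stays between 22.4 and 49.4 FPKM, and PRKCZ stays under 1 FPKM.

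At earlier times NRGN (−0.73, adjusted p = 0.0399) and PPP1R9B (−0.80, adjusted p = 0.0263, both limma) fell at 6 h, where 7.54% of tested genes were lower. None of the 9 passed at 2, 4, 8 or 16 h on the rescaled values, where 0.0506%, 0.0758%, 3.83% and 3.04% of genes were lower; over all tested genes 194, 1578, 3006 and 3030 had an unadjusted p under 0.05 at these times. On the unnormalised values 6, 7, 7 and 5 of the 9 were lower at 4, 6, 8 and 16 h, where 18.1%, 29.8%, 29.2% and 27.5% of tested genes were, and none at 2 h, where 0.345% were. Both 6 h calls were lost without either 0 h library and without 6 h library 0 or 2. TWIST1 did not pass at any time in SHEP-21N cells and changed by −0.44 at 24 h (adjusted p = 0.131 from limma).

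The deepest change of any of the 9 in SHEP-21N cells, −0.91, set beside their changes with the hairpin at 24 h (−1.54 to −3.02, rescaled), was shallower than each of those. The genes were picked for their deep falls with the hairpin, so shallower changes in another experiment could follow from the choice. Nothing is therefore read from that contrast. The difference between the lines was not tested, since they were also run as separate experiments with separately rescaled tables. SEC13 was the least changed of the 9 in SHEP-21N cells at 24 h, and OAF had the seventh deepest change there. However, OAF at −0.60 lay close to HNRNPUL1 at −0.64, PIK3R2 at −0.65 and PPP1R9B at −0.68, with SE between 0.21 and 0.23. Whether the order differed from that with the hairpin was not tested.

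Genes that act with the 10 were followed as 11 lists of 95 genes, 84 of them tested in BE(2)-C cells. On the rescaled values 83 of 84 fell at 48 h, where 93.3% of all tested genes did, with a median of −1.41 against −1.36 over all. On the unnormalised values 15 fell, 14 rose and 55 did not pass, with a median of 0.06 against 0.02; of all tested genes 21.3% fell and 18.1% rose. The genes named below as rising on the unnormalised values all had negative changes on the rescaled values, between −1.32 and −0.64. The 10 genes themselves had a median of −3.74 rescaled and −2.40 unnormalised.

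Among phosphoinositide 3-kinase subunits 2 of 8 fell on the unnormalised values, PIK3C2B at −0.52 (adjusted p = 0.00238 from limma) and PIK3R3 at −0.33 (0.00239), and 2 rose, PIK3R4 by 0.25 (0.0439) among them. PIK3R3 encodes the p55γ regulatory subunit, a paralogue of p85β. Both hnRNP U relatives fell, HNRNPUL2 at −0.92 (1.55e-07) and HNRNPU at −0.15 (0.0194). Among 15 STRIPAK genes 2 fell and 1 rose: the kinase STK25 at −0.96 (6.73e-07), the phosphatase catalytic subunit PPP2CB at −0.62 (6.75e-07) and FGFR1OP2 by 0.21 (0.00665).

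Of 5 genes around protein phosphatase 1 none passed on the unnormalised values, PPP1CC standing at −0.12 (adjusted p = 0.113 from limma) and PPP1CA at −0.23 (0.150). COPII coat genes gave no falls and 2 rises among 11, SEC23B by 0.35 (1.11e-04) and SAR1B by 0.27 (0.00119). The 9 other genes of the Nup107-160 pore complex gave 1 rise, NUP37 by 0.31 (0.00585). Of the 3 genes listed for GATOR2 alone WDR24 fell, at −0.45 (0.00116), and MIOS rose by 0.26 (0.0111). SEC13 is shared by these 3 assemblies and, set beside their tested list genes, was the one with a change below −0.5.

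For DPM3's pathway, dolichol phosphate mannose synthesis and use, 1 of 13 fell and 3 rose on the unnormalised values, ALG12 by 0.44 (1.67e-04, limma) and PIGV by 0.31 (0.00406) among the rises. Around calmodulin 3 of 5 fell, CALM3 at −0.63 (1.87e-06) and GAP43, another neuronal calmodulin binder, at −0.30 (0.00493) among them, and CAMK2G rose by 0.29 (0.00651). Of 7 nucleoside mono- and diphosphate kinases none fell and 2 rose, the mitochondrial kinase AK3 by 0.86 (5.34e-07) and CMPK1 by 0.35 (0.0308). Of 6 tested polarity genes around PRKCZ 4 fell and 1 rose, with CDC42 at −0.70 (1.41e-07), LLGL1 at −0.26 (0.00367) and PARD3 at −0.32 (0.00384).

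In SHEP-21N cells at 24 h 24 of 86 tested list genes fell and 7 rose on the rescaled values, where 32.4% of all tested genes fell and 6.16% rose. In the unnormalised values 29 fell and 32 rose, where 36.4% of all fell and 28.9% rose. The genes named here changed in the same direction on both scales. ALG3, a mannosyltransferase that uses dolichol phosphate mannose, fell, at −1.55 (adjusted p = 0.000383 from limma), as did DPM2 at −1.0 (0.00316). The nucleoside diphosphate kinase NME1 fell, at −1.01 (0.00772), as did HNRNPU at −0.73 (0.0139) and STK25 at −0.83 (0.0116). The STRIPAK gene CTTNBP2NL rose by 0.73 (0.00194), and PIK3CA, a catalytic phosphoinositide 3-kinase subunit, by 0.54 (0.0268).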

How the data were processed

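Polyadenylated RNA of 2 human neuroblastoma models was sequenced as stranded libraries, per the labels' protocols. The submitters' processing notes name HISAT, Cufflinks 2.0.0 and the hg19 build. For each experiment the FPKM deposited by the authors come unnormalised and rescaled to ERCC spike-ins. The rescaling method, and whether counting used strand, are not stated. Of 49 listed samples 38 have columns; 11 are not analysed here. FPKM hold no read numbers, so depth and counting error are unknown. Values listed at 0 in the unnormalised BE(2)-C table stand at 0.0377 to 0.201 FPKM in the rescaled one.

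Here, log2(FPKM + 1) of genes with a mean of at least 1 unnormalised FPKM was fitted in limma 3.58.1 (R 4.3.3), 1 mean per group, moderated variances with an intensity trend, each time against no doxycycline or 0 h. All comparisons of an experiment share its control libraries. Adjusted p is Benjamini-Hochberg over all tested genes (11433 and 11867), and a gene rose or fell at an adjusted p under 0.05. The model was tested on simulated data. Tables and figures used Python 3.11.15, numpy 2.4.6, pandas 2.3.3 and matplotlib 3.10.9. Each gene's transcript was the principal, then longest, protein-coding one of GENCODE v29. The 10 genes, gene lists, tests and alternatives were chosen with earlier results of these data known. Named were the 10 genes, TWIST1, MYCN, the next genes in the order of falls, the 5 most alike, and up to 3 (hairpin) or 2 (SHEP-21N) genes a list by smallest adjusted p (unnormalised values with the hairpin, rescaled in SHEP-21N); small and uncharacterised RNAs were left out. Alternatives were the unnormalised values, centring on the median gene, a pseudocount of 0.1, no filter, a replicate block, an onset at −1 and leaving out each library. Some items that the naming rule would give are not reported here.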

Additional observations from a re-analysis of the deposited data

How the results depend on the processing

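The scale decided most counts. Genes lower with the hairpin at 6, 12, 24 and 48 h numbered 2, 3, 67 and 10667 on the rescaled values, 54, 381, 1551 and 2434 on the unnormalised values and 44, 228, 1122 and 2500 after centring on the median gene. In SHEP-21N cells genes lower at 2, 4, 6, 8 and 16 h numbered 6, 9, 895, 454 and 361 rescaled, 41, 2142, 3538, 3471 and 3260 unnormalised, and 32, 1619, 2864, 2744 and 3013 centred. Of the 9 genes tested there, 0, 2, 0 and 0 were lower at 4, 6, 8 and 16 h rescaled, 6, 7, 7 and 5 unnormalised and 4, 6, 5 and 5 centred. List genes at 48 h were 83 lower and 0 higher rescaled, 15 and 14 unnormalised, and 22 and 17 centred; at 24 h in SHEP-21N cells 7 were higher rescaled, 32 unnormalised and 34 centred. TWIST1 passed at 6 and 12 h on unnormalised values (−0.93 and −1.38) and centred values (−0.95 and −1.39) but not on rescaled values. A pseudocount of 0.1 gave 5 and 8 genes lower with the hairpin at 3 and 12 h, and 20 in SHEP-21N cells at 4 h. With no filter no gene was lower at 3 or 6 h with the hairpin, and in SHEP-21N cells 1 of the 10 genes was lower at 6 h and 4 list genes were higher at 24 h.

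Column numbers do not pair the libraries: deviations of same-numbered BE(2)-C libraries correlated at a median of 0.00872 (rescaled). With the replicate block, genes lower with the hairpin numbered 1, 1 and 143 at 3, 6 and 24 h, and in SHEP-21N cells 547, 275 and 226 at 6, 8 and 16 h, with 1 of the 10 genes lower at 6 h. OAF at 24 h in SHEP-21N cells was no longer past the threshold with that block.

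Leaving out 1 library at a time, TWIST1 stood between −1.10 and −0.80 at 3 h, −0.92 and −0.55 at 6 h, −1.39 and −0.99 at 12 h, −2.0 and −1.81 at 24 h, and −3.56 and −3.0 at 48 h. Genes lower with the hairpin ranged from 1 to 10, 0 to 9, 1 to 11, 23 to 137 and 9166 to 10970 at the 5 times. In SHEP-21N cells they ranged from 3 to 8, 7 to 33, 36 to 611, 25 to 338, 24 to 580 and 700 to 5503 at the 6 times. The 10 genes had 0 to 2 lower at 6 h and 0 to 8 at 24 h. List genes lower ranged from 76 to 84 at 48 h and from 1 to 32 at 24 h, and those higher at 24 h from 1 to 7.

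The 48 h changes of the 10 genes lay between −4.82 and −1.63 over all alternatives run and none turned sign. Depth is unknown, so counting error of weak genes such as PRKCZ cannot be given.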

Other observations

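The pattern by copies of ACGAGGA, chosen after the changes were seen, was also looked at within length and GC classes of the transcripts. Within the highest tertile of GC the mean unnormalised log2 change at 48 h was −0.11 over 2506 genes without the heptamer, −0.28 over 656 with 1, −0.43 over 166 with 2 and −0.74 over 61 with 3 or more. With 0, 1, 2 and 3 or more copies it was 0.04, −0.09, −0.18 and −0.20 in the middle tertile of GC and 0.12, 0.00, −0.13 and −0.20 in the lowest. In the same order it was 0.09, −0.05, −0.20 and −0.38 in the longest tertile of transcripts and 0.01, −0.21, −0.44 and −0.99 in the middle one. The shortest tertile broke the order, with −0.03, −0.24, −0.53 and −0.33, the last over 6 genes. The means also moved with GC alone.

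By place, and without the 10 genes and TWIST1, genes with 1 copy in the coding sequence had a mean change of −0.03 at 12 h and −0.14 at 48 h (1205 genes). Genes with 1 copy 3′ of the coding sequence had −0.12 and −0.23 (190 genes), and those with 1 copy before it −0.0046 and −0.03 (97 genes). Genes whose copy had the preceding base of TWIST1 stood at −0.21 at 48 h (245 genes), against −0.13 for those with another base (1247 genes). With both features, as in OAF and SEC13, 24 other genes had a mean of −0.09 at 48 h, and 8.33% of them were at −0.5 or lower. No test was made of these differences.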
